A study of Bos taurus with 14 samples.

Results

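Mitochondrial tRNA genes are short genes of the mitochondrial genome, and 10 rows of tRNA length with enough counts were found among the 36075 gene identifiers of this milk fat globule data set. Rows were selected on their counts: a row was taken where its identifier number lay in the block of consecutive numbers that holds the bovine mitochondrial genes, its length was 58 to 76 bases and it had 10 or more counts in at least 5 of the 14 libraries. Length was derived from the ratio of a gene's count to its FPKM (fragments per kilobase of gene and per 1000000 fragments), set to the length of COX1 in the RefSeq gene table. The count minimum chose these genes for their level, so the levels below are a description. Identifiers are given in full once and then by their last 5 digits.

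The 14 libraries are RNA-seq libraries of mRNA made from frozen milk of purebred Holstein cows, 1 library per cow, with 7 cows homozygous for the A1 form of β-casein (A1A1) and 7 for the A2 form (A2A2). All came from 1 commercial farm with the same rations and management, and ages are not given in the labels. Milk fat globules are droplets that the secretory cells of the udder release with a coat of cell membrane and some cytoplasm. The libraries held 16116849 to 22994197 counts, and 4 of them, 2 per genotype, carry an unexplained suffix _2 in their description. A1A1 3 had the lowest TMM scaling factor, 0.636. The identifiers are not paired with gene names in the files or in the reference table, so the tissue could not be checked against named marker genes.

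Mitochondria transcribe both strands of their circular genome into long RNAs, in which tRNAs lie between most of the mRNA and rRNA sequences. Cutting at the tRNAs releases the mRNAs and rRNAs, an arrangement known as tRNA punctuation. The mature tRNA is folded, chemically modified, carries a CCA end and has no poly(A) tail, whereas most mitochondrial mRNAs have a short one. A count on a tRNA gene in an mRNA library can therefore come from a mature tRNA, a longer precursor or a fragment that reaches in from a neighbouring gene, and these counts do not separate them.

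The lengths matched the tRNA genes of the reference mitochondrial genome. The RefSeq table (assembly ARS-UCD2.0) lists 22 mitochondrial tRNA genes. In the identifier block, 45 rows exist: the 10 members, 5 rows of tRNA length below the count minimum, 15 rows with the length of a mitochondrial protein or rRNA gene, 4 longer rows with no mitochondrial length and 11 rows without a count, whose length cannot be derived. No length occurred in more of these 15 tRNA-length rows than in the reference, and 7 of the 22 tRNA genes had no row of a derivable length.

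A tRNA could be assigned by length alone for 2 of the 10 members. ENSBTAG00000043565, with 72 bases, has the length of KEH36_t05 only, the middle one of 3 tRNA genes between ND1 and ND2, which is the place of the glutamine tRNA in the vertebrate gene order. ENSBTAG00000043582, with 66 bases, has the length of KEH36_t22 only, the last gene after CYTB, which is the place of the proline tRNA. Both of these tRNAs are encoded on the light strand in vertebrates, the strand that also carries ND6. ENSBTAG00000043545 has 71 bases, a length shared by 2 tRNA genes, one next to COX1 and one next to ND5. The other members have lengths that more tRNA genes share. ENSBTAG00000043572, ENSBTAG00000043547, ENSBTAG00000043549, ENSBTAG00000043574 and ENSBTAG00000043583 have 69 bases, the length of 8 reference tRNA genes, and ENSBTAG00000043579 and ENSBTAG00000043548 have 67 bases, the length of 5.

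The 10 genes were rare beside the rest of the mitochondrial transcriptome. They had 20465 counts over all libraries, 72.4 per 1000000 of all counts, whereas the 15 longer mitochondrial genes had 54446259. Gene 43572 held 52.0% and gene 43545 held 30.8% of the members' counts, and the 8 others shared the rest. Per length, gene 43572 had a level of 883 ± 648 FPKM in A1A1 cows (SD, n = 7), while COX1, the catalytic subunit of cytochrome c oxidase, had 66593 ± 34556 FPKM. A fragment of a paired-end library is usually longer than a tRNA gene, and how such fragments were counted is not given in the sources used here, so an FPKM level of these genes is less certain than that of a longer gene.

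The members' levels formed a few steps. In FPKM, gene 43572 exceeded gene 43545 in 8 of 14 libraries, so this pair had no fixed order. The count ratio of gene 43572 to gene 43545 ran from 0.410 in A1A1 7 to 3.96 in A1A1 2. Gene 43545 exceeded gene 43582 in 14 of 14 libraries, and gene 43582 exceeded gene 43565 in 12 of 14. From gene 43565 down to gene 43583, each gene exceeded the next in 7 to 9 of 14 libraries, so neighbours had no fixed order over all libraries. Some orders differed by genotype, at low counts in many libraries. Genes 43574, 43579 and 43583 met the count minimum mainly through A1A1 libraries and gene 43548 mainly through A2A2 libraries. These orders therefore follow in part from the choice and are no separate result. Gene 43574 exceeded gene 43548 in 6 A1A1 libraries but 1 A2A2 library. Gene 43579 exceeded gene 43574 in 5 A1A1 and 2 A2A2 libraries, and gene 43548 exceeded gene 43583 in 2 and 5.

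**Figure D1:**
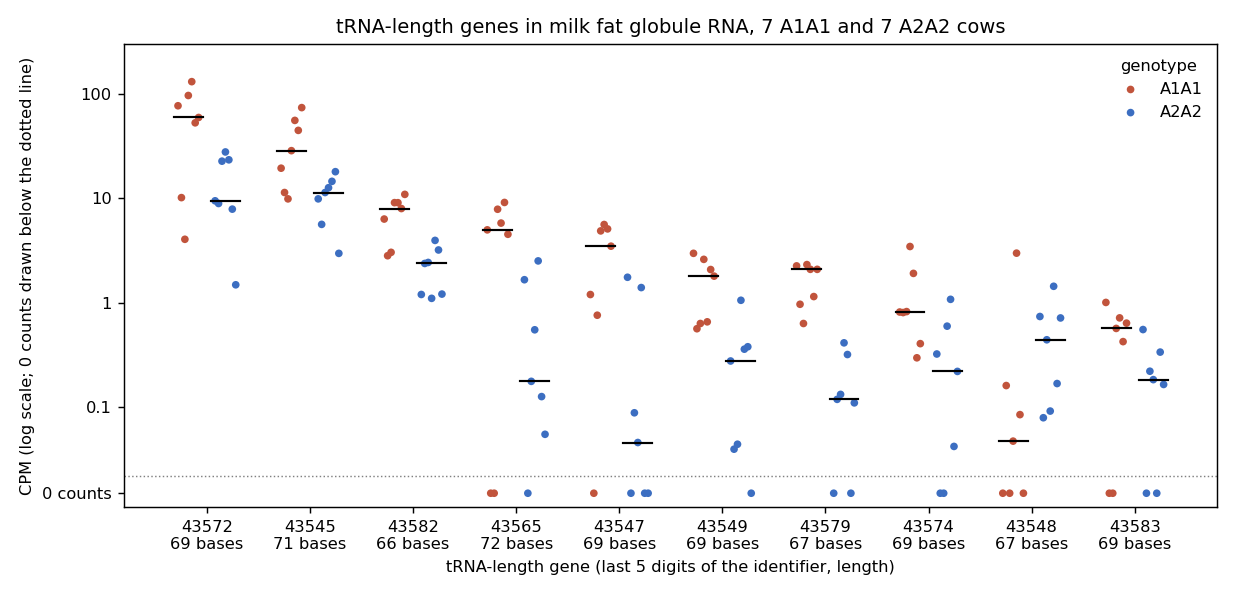
CPM (counts per 1000000, log scale) of the 10 tRNA-length genes in each of 7 A1A1 and 7 A2A2 libraries, 1 point per cow, with the median as a black line and libraries without a count drawn below the dotted line. Gene 43579 is the only one of the 10 whose A1A1 and A2A2 points do not overlap, and gene 43548 has its highest point in A1A1 but its higher median in A2A2.

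The count minimum was met evenly by 3 members only. Genes 43572, 43545 and 43582 had 10 or more counts in all 14 libraries. Another 6 had 10 or more counts in 5 or more A1A1 libraries and in fewer than 5 A2A2 libraries, so A1A1 libraries alone sufficed to bring them in, and a higher level in A1A1 favoured their choice. Gene 43548 met the minimum through 1 A1A1 and 4 A2A2 libraries. Of the 140 pairs of a member and a library, 19 had no count, 8 of 70 in A1A1 and 11 of 70 in A2A2. A count of 0 allows up to 3 counts, which is 0.119 to 0.242 CPM depending on the library.

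Gene 43548 was the member just inside the minimum, with 10 or more counts in 5 libraries. ENSBTAG00000043575, of 69 bases, was the nearest outside it, with 10 or more counts in 3 libraries and 0 to 15 counts per library. The other 4 rows of tRNA length had 3 to 7 counts in total. They were ENSBTAG00000043557 and ENSBTAG00000043562 of 67 bases, ENSBTAG00000043573 of 73 bases and ENSBTAG00000043580 of 68 bases. The last 2 have lengths of a single tRNA gene each, KEH36_t09 and KEH36_t11, the second of which lies next to COX1.

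The question of the study was how the globule RNA differs between the β-casein genotypes. No tRNA-length gene differed past the threshold in edgeR's quasi-likelihood test over all 12320 genes tested, although all 8 that could be tested were fitted lower in A2A2. The 8 had a median log2 fold change of -2.23 and a range of -3.34 to -1.67, beside a median of -0.0042 over all genes, of which 50.5% were fitted lower. The test called 0 of the 8 and 0 of all genes (0%) at an adjusted p of 0.05. At an unadjusted p under 0.05 it had 411 genes (3.34%), 265 of them lower (2.15%), and all 8 members were among the lower ones. No significance follows from that count, since most of the 8 were brought in by A1A1 libraries and all were chosen with earlier results known. It also depended on the libraries used. Without the suffix libraries, genes 43547, 43549, 43565 and 43574 had unadjusted edgeR p of 0.196, 0.0590, 0.205 and 0.0674. DESeq2 called 5 genes (0.0237%), 4 of them lower (0.019%), and gene 43579 was 1 of them. In bulk RNA, fewer cells or globules of a kind and less RNA in each cannot be told apart.

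Gene 43572, the most abundant member, had 4.05 CPM in the lowest, 59.3 in the median and 131 in the highest A1A1 library. In A2A2 it had 1.48, 9.45 and 27.8 CPM. The genotypes overlapped through A1A1 3 and A1A1 7, while the other 5 A1A1 libraries were above every A2A2 library. Its log2 fold change was -2.08 with a standard error of 0.68 (edgeR adjusted p = 0.856).

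Gene 43545 had 9.87, 28.6 and 73.8 CPM in the lowest, median and highest A1A1 library and 2.97, 11.4 and 18 CPM in A2A2. Again 5 A1A1 libraries were above all A2A2 libraries, and 2 A2A2 libraries lay below all A1A1 libraries. The log2 fold change was -1.70 with a standard error of 0.47 (edgeR adjusted p = 0.856).

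Gene 43582, which has the length of the tRNA gene after CYTB, had 2.82, 7.97 and 10.9 CPM in the lowest, median and highest A1A1 library. Its A2A2 values were 1.10, 2.38 and 3.95 CPM. Of the A2A2 libraries, 5 were below all A1A1 libraries. The log2 fold change was -1.67 with a standard error of 0.38 (edgeR adjusted p = 0.856, DESeq2 adjusted p = 0.0532).

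**Figure D2:**
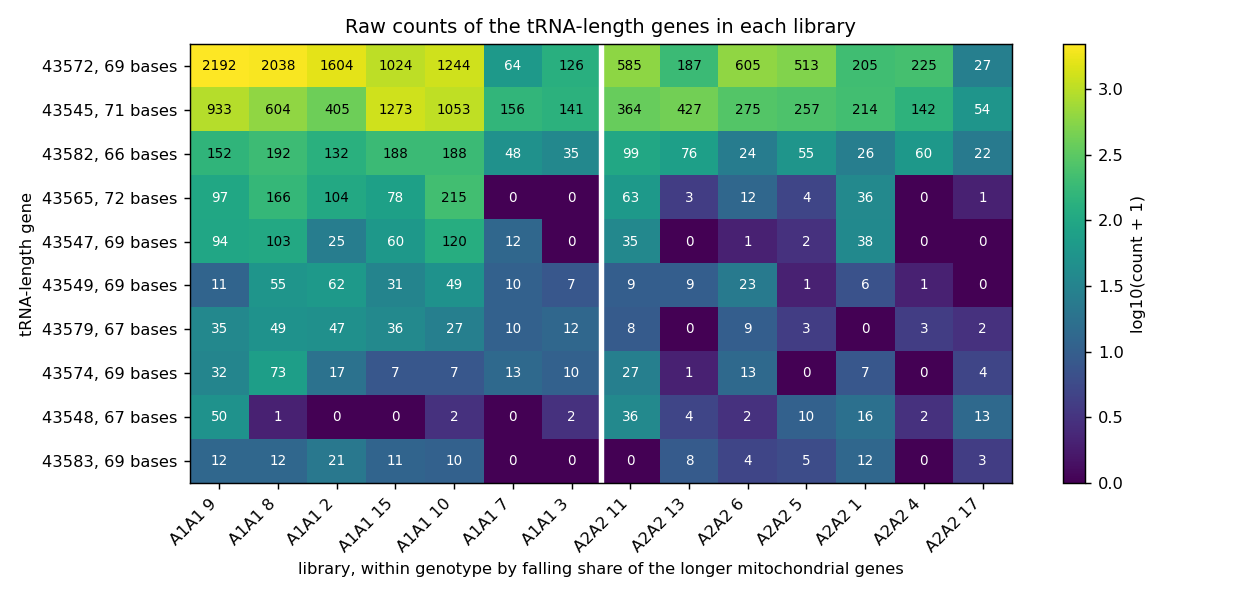
Raw counts of the 10 tRNA-length genes (vertical) in the 14 libraries (horizontal), with each genotype ordered by falling share of the longer mitochondrial genes and colour as log10(count + 1). A1A1 7 and A1A1 3 hold 64 and 126 counts of gene 43572, against 1024 to 2192 in the other A1A1 libraries.

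Genes 43565 and 43547 were undetected or nearly so in some cows of both genotypes. Gene 43565, with the length of the middle tRNA between ND1 and ND2, had no count in A1A1 3 and A1A1 7 and 4.52 to 9.12 CPM in the other 5 A1A1 libraries. In A2A2 its median was 0.177 CPM and its highest value 2.51. The log2 fold change was -2.65 with a standard error of 1.13 (edgeR adjusted p = 0.856). Leaving out 1 library gave -3.42 (without A2A2 11) to -2.40 (without A1A1 10), and leaving out the suffix libraries gave -1.96. Gene 43547 had 0, 3.48 and 5.61 CPM in the lowest, median and highest A1A1 library and 0, 0.0459 and 1.75 CPM in A2A2, where 3 of 7 libraries had no count. Its log2 fold change was -2.66 with a standard error of 1.15 (edgeR adjusted p = 0.856). It was -3.50 without A2A2 1, -2.43 without A2A2 4 and -1.95 without the suffix libraries. These 2 genes had the highest correlation of log2 CPM among the 45 pairs of members over the 14 cows (Pearson's r = 0.86), a description of genes measured in the same libraries. Both had no count in A1A1 3 and A2A2 4, which adds to this r. Genes 43545 and 43582, counted in every library, had nearly the same r (0.85).

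Gene 43549 had 0.564, 1.80 and 2.97 CPM in the lowest, median and highest A1A1 library and 0, 0.277 and 1.06 CPM in A2A2. All A2A2 libraries but 1 lay below the A1A1 libraries, the exception being A2A2 6. The log2 fold change was -2.37 with a standard error of 0.77 (edgeR adjusted p = 0.856). It was -3.09 without A2A2 6, -2.16 without A1A1 2 and -2.09 without the suffix libraries. Gene 43574 had 1.22 ± 1.12 CPM over the 7 A1A1 cows and 0.323 ± 0.396 CPM over the 7 A2A2 cows (mean ± SD). Its log2 fold change was -1.89 with a standard error of 0.88 in the same fit. It was -2.61 without A2A2 11, -1.36 without A1A1 8 and -1.81 without the suffix libraries.

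Gene 43579, of 67 bases, had no overlap between the genotypes. It had 0.633, 2.09 and 2.32 CPM in the lowest, median and highest A1A1 library, from 10 to 49 counts. In A2A2 it had 0, 0.119 and 0.413 CPM, from 0 to 9 counts. All 7 A1A1 libraries and none of the A2A2 libraries reached the count minimum, so its choice and its place among the tested genes rest on A1A1. Of all genes tested, 4 (0.0325%) were lower in A2A2 without overlap. The log2 fold change was -3.34 with a standard error of 0.70. It missed the threshold by edgeR (adjusted p = 0.738), passed in DESeq2, where no filter on low counts was set beforehand (adjusted p = 0.000711), and passed in limma on log2(FPKM + 1) (adjusted p = 0.0338). The limma call was lost without a filter on low values (adjusted p = 0.185), on log2(FPKM + 0.1) (adjusted p = 0.545) and on counts with voom (adjusted p = 0.116). Leaving out 1 library gave log2 fold changes of -3.77 to -3.12 in edgeR.

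Genes 43548 and 43583 were below the filter of edgeR and were fitted without it. Gene 43548 was the only member not lower in A2A2 there. It had 0 to 2 counts in 6 A1A1 libraries and 50 in A1A1 9, against 2 to 36 in A2A2, and the fitted log2 fold change was 0.20 with a standard error of 1.14 (edgeR adjusted p = 0.963). Without A1A1 9 the log2 fold change was 3.33 (edgeR adjusted p = 0.621), and without A2A2 11 it was -0.27. Gene 43583 had 0.479 ± 0.372 CPM over the A1A1 cows and 0.208 ± 0.194 CPM over the A2A2 cows (SD, n = 7 each), a log2 fold change of -1.17 with a standard error of 1.05 (edgeR adjusted p = 0.691).

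Summed, the 10 genes made up 114 ± 70.4 of every 1000000 counts in A1A1 cows and 32.1 ± 15.7 in A2A2 cows (SD, n = 7 each, no test, since the members were chosen). The lowest library was A2A2 17 with 7.20 (exact binomial 95% interval 6.0 to 8.57) and the highest A1A1 9 with 195 (189 to 202), intervals that cover counting error only. A1A1 3 had 17 and A1A1 7 had 19.4, within the A2A2 range, and the other 5 A1A1 libraries had at least 110, above the highest A2A2 value of 53.3. In the 10 libraries without the suffix the means were 102 in A1A1 and 30.5 in A2A2, and in the 4 with it 144 and 36.1. The number of members with 10 or more counts was 8.0 ± 1.63 in A1A1 and 4.86 ± 1.77 in A2A2. The 10 counts are the minimum that chose the members. A1A1 libraries alone sufficed to bring in 6 of them, so this number follows in part from the choice and is no separate result.

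The longer mitochondrial genes were also lower in A2A2 on average. The 15 genes were all fitted lower in A2A2, with log2 fold changes of -1.56 to -1.04. None passed in edgeR, and all 15 had an unadjusted p under 0.05, as the 8 tested members did in the same fit of all 14 libraries. Among them COX1 had -1.41 and ND6, the protein gene on the light strand, -1.42. ND6 (ENSBTAG00000043546) was called by DESeq2 (adjusted p = 0.00663), as gene 43579 was. Their share of all counts was 26.7 ± 12.8% (SD, n = 7) among A1A1 cows and 12.2 ± 5.22% (SD, n = 7) among A2A2 cows, from 5.13% in A2A2 17 to 51.9% in A1A1 9, the same libraries that were lowest and highest for the tRNA-length genes.

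**Figure D3:**
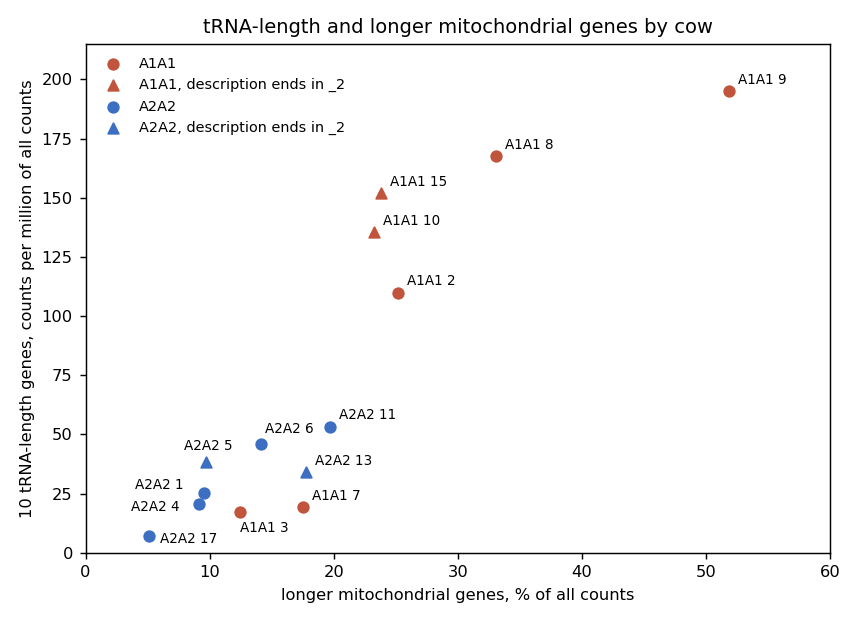
Summed counts of the 10 tRNA-length genes per 1000000 of all counts (vertical) against the share of the 15 longer mitochondrial genes (horizontal), 1 point per cow, coloured by genotype, with triangles for the libraries whose description ends in _2. A1A1 3 and A1A1 7 lie with the A2A2 libraries at 17 and 19.4, and A1A1 9 is highest on both axes.

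Over the 14 cows the 3 members with 10 or more counts in every library were correlated with COX1. On log2 CPM, with a pseudocount of 0.05 CPM, gene 43572 had a Pearson's r of 0.79 (permutation p = 0.0007, 0.00224 adjusted over the 10 correlations computed) and a Spearman's rho of 0.80 (permutation p = 0.0011, adjusted 0.0022). Gene 43545 had r = 0.86 (permutation p = 6e-05, adjusted 0.0006) and rho = 0.86 (permutation p = 0.00018, adjusted 0.0006). Gene 43582 had r = 0.83 (permutation p = 0.00024, adjusted 0.0012) and rho = 0.88 (permutation p = 8e-05, adjusted 0.0005). Without A2A2 17 and A1A1 9, the 2 libraries farthest from the median of COX1, r was 0.60, 0.76 and 0.80 for the 3 genes. The genes share libraries and scaling, and both measures differ by genotype in the same direction. How many of all genes have such an r with COX1 was not counted, so the relation is not shown to be particular to these genes.

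Within each genotype the relation stayed positive for these 3 genes but rested on 7 cows. In A1A1 r was 0.71 for gene 43572 (exact permutation p = 0.00198), 0.63 for gene 43545 (exact permutation p = 0.0901) and 0.62 for gene 43582 (exact permutation p = 0.0385). In A2A2 it was 0.77 (exact permutation p = 0.0433), 0.93 (exact permutation p = 0.00198) and 0.54 (exact permutation p = 0.184). These within-genotype p-values are unadjusted and two-sided. Of the other 7 members, 5 had r between 0.61 and 0.78 with COX1 over all cows, which pools genotypes that differ in both measures. Within a genotype these values were lower in A1A1 for all 5 and in A2A2 for 4. Gene 43565 had 0.55 in A1A1 and in A2A2, gene 43547 had 0.57 and 0.30, gene 43574 had 0.53 and 0.34, gene 43579 had 0.62 and 0.23, and gene 43549 had -0.085 and 0.82. Over all cows gene 43583 had 0.36 (0.58 in A1A1, -0.12 in A2A2), and gene 43548 had -0.078, or -0.52 without A2A2 17 and A1A1 9. Spearman's rho of gene 43583 was 0.58 over all cows, 0.74 in A1A1 and 0.054 in A2A2.

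Among the 15 longer mitochondrial genes, ND2 had the highest r with 5 of the 10 members and ND4L with 2. For gene 43548 this highest r was only 0.045. Gene 43572 had its highest r with ND2 (0.91) and its lowest with the 16S rRNA gene KEH36_r01 (0.50). Gene 43545 was closest to ND4L (0.95) and gene 43582 to ND5 (0.87). Gene 43565, assigned to the tRNAs between ND1 and ND2, was closest to ND2 (0.84). So were gene 43547 (0.81) and gene 43583 (0.57), whose places are not known, so this match is not particular to gene 43565. Outside the mitochondrial block, the 3 tested genes with the highest r to gene 43572 were ENSBTAG00000057959 (0.96), ENSBTAG00000016683 (0.95) and ENSBTAG00000004587 (0.94). These are values over the same 14 libraries, chosen as the highest of many, and carry no test.

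Measured against the longer mitochondrial genes, the 8 tested tRNA-length genes had log2 fold changes nearer to 0. The fit was repeated with each library scaled to its counts of the longer genes of the block, so that a log2 fold change of 0 means a change equal to theirs. All 8 tested members were still fitted lower in A2A2, with a median log2 fold change of -1.04 and a range of -2.09 to -0.35. Without the 4 suffix libraries the median was -0.55. A1A1 libraries brought in most of the 8 members, which favoured a lower fit in A2A2. Genes 43548 and 43583, fitted without a filter, were above 0 (2.36 and 0.32). In the fit against all genes they had 0.20 and -1.17, so gene 43548 lay farther from 0 on the scale of the longer genes. On this scale the median over all genes is 1.36, 73.5% of them were called different and 2.64% were fitted lower, since most genes lie outside the mitochondrion. The scale thus differs from the first for all genes, though not by the same amount. That the 8 lay nearer to 0 therefore follows in part from the scale. Gene 43549 went from -2.37 to -1.39, and gene 43572 from -2.08 to -0.69.

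For the 3 members seen in every library, no difference from the longer mitochondrial genes was detected. The log2 fold change of gene 43572 was -0.69 with a standard error of 0.50 (edgeR adjusted p = 0.209), from 200 ± 115 counts per 1000000 longer mitochondrial counts in A1A1 and 124 ± 75.8 in A2A2 (both SD, n = 7). Gene 43545 had -0.47 with a standard error of 0.40 (edgeR adjusted p = 0.290). Without the 4 suffix libraries it was 0.12, and without A1A1 15 alone -0.094. Gene 43582 had -0.35 with a standard error of 0.43 (edgeR adjusted p = 0.463), and -0.046 without the suffix libraries.

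Gene 43579 was the 1 member called lower on this scale, among 2 of all genes (0.0162%). It entered the list and the tested genes only through A1A1 libraries, so this p is no independent evidence of a difference. It had 6.01 ± 2.15 counts per 1000000 longer mitochondrial counts in A1A1 and 1.42 ± 1.11 in A2A2 (both SD, n = 7). Its log2 fold change was -2.09 with a standard error of 0.78 (edgeR adjusted p = 0.0188). The call was lost without the 4 suffix libraries (log2 fold change -1.70, edgeR adjusted p = 0.109) and without a filter on low counts (-2.08, edgeR adjusted p = 0.0561). Genes 43565, 43547, 43549 and 43574 had -1.54, -1.39, -1.39 and -0.68, with edgeR adjusted p between 0.0965 and 0.459. Without the suffix libraries they had -0.57, -0.37, -0.97 and -0.53. Leaving out A2A2 1 gave -2.11 for gene 43565 and -2.60 for gene 43547 (edgeR adjusted p = 0.0727 and 0.0280). Gene 43549 had -2.08 without A2A2 6 (edgeR adjusted p = 0.0259), and gene 43574 had -1.08 without A2A2 11 and -0.20 without A1A1 8. Genes 43547 and 43549 entered the list through A1A1 libraries, and A2A2 1 and A2A2 6 were their highest A2A2 libraries. Their p under 0.05 is therefore no independent evidence of a difference. Without A2A2 1, and likewise without A2A2 6, 2 of all genes were called lower. Both members fitted without a filter were above 0 on this scale. Gene 43583 had 0.32 with a standard error of 1.12 (edgeR adjusted p = 0.831). Gene 43548 had 2.36 with a standard error of 1.03 (edgeR adjusted p = 0.0514, DESeq2 adjusted p = 0.0326, where 60.2% of genes were called). It entered the list mainly through A2A2 libraries, so its DESeq2 call is likewise no independent evidence of a difference.

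**Figure D4:**
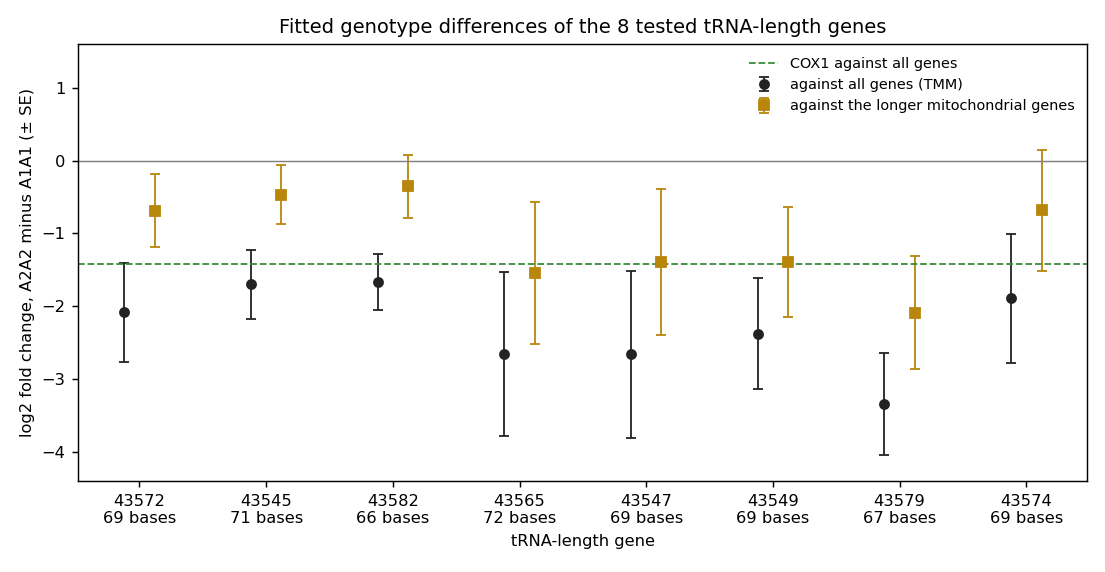
Fitted log2 fold changes (A2A2 minus A1A1) of the 8 tested tRNA-length genes with standard errors, against all genes (black circles) and against the longer mitochondrial genes (gold squares), with COX1 against all genes as a dashed line at -1.41. All 8 black values lie between -3.34 and -1.67, and the gold values lie between -2.09 and -0.35.

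Summed over the 10 genes, the ratio to the longer mitochondrial genes was 399 ± 207 counts per 1000000 for A1A1 and 259 ± 84.6 for A2A2 (SD, n = 7 each, no test). It ran from 111 in A1A1 7 and 137 in A1A1 3 to 639 in A1A1 15, and from 140 in A2A2 17 to 395 in A2A2 5, so the A2A2 values lay within the A1A1 range. The 2 A1A1 libraries with the suffix had the highest ratios of all (584 and 639). A1A1 9, which had the largest share of longer mitochondrial genes, had 376.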

How the data were processed

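RNA of milk fat globules from 14 cows was measured, and groups and sample numbers come from the sample titles. Both the raw counts and the FPKM values of 36075 identifiers were made and deposited by the authors. STAR, cutadapt 4.0, FastQC 0.11.9 and edgeR 4.0.16 appear, without roles, in the submitters' processing notes. No source used here gives the genome build, the annotation, the strand setting or the tool that counted, so reads of a tRNA gene and of a gene that overlaps it or lies on the other strand cannot be told apart. The gene table of assembly ARS-UCD2.0 matched 0 identifiers and gave lengths, names and neighbours only. The planned lists of nuclear genes and cell type markers were not run for that reason, and no sequences were at hand.

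The test of counts was edgeR's robust quasi-likelihood test (version 4.0.16 in R 4.3.3; TMM factors, filterByExpr, two-sided, A2A2 minus A1A1, Benjamini-Hochberg over all 12320 genes). Standard errors are the log2 fold change divided by the root of F. The same fit with library sizes set to the summed counts of the 19 longer rows of the block gave values relative to them; the 4 rows without a mitochondrial length hold 0.00945% of those counts. Alternatives used DESeq2 1.42.0 and limma 3.58.1. Correlations used 100000 permutations, or all orders within a genotype. The scripts were tested on simulated counts. Every member was named, and the 6 of most counts and the 3 of smallest p were given in full. The members and lists were chosen with earlier results of these data known.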

Additional observations from a re-analysis of the deposited data

Results flagged for a closer look

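Within each genotype, 24 sets of 7 values (CPM of each member, the summed members and their ratio to the longer mitochondrial genes) were examined by Dixon's test for 1 library apart from the other 6, and 2 were found. Chance gives about 1 in 20 sets where values are normally distributed. Low counts with zeros are not, and the summed sets contain the members, so this rate is only a rough guide here. Gene 43548 had 2.98 CPM in A1A1 9, against at most 0.161 in the other A1A1 libraries. Gene 43549 had 1.06 CPM in A2A2 6, where no other A2A2 library was above 0.379.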

How the results depend on the processing

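No paired analysis was possible because the genotypes share no sample number. The count of 0 called genes became 5 by DESeq2 and 1 by limma on log2(FPKM + 1), and among the members it became 1 by each, gene 43579 both times. The median log2 fold change of the 8 tested members was -2.23, -3.42 by limma voom with quality weights and between -2.51 and -1.95 under the other fits of counts. Scaling by library totals alone moved the median of all genes to 0.18, and all 8 stayed lower. Relative to the longer mitochondrial genes, 1 member was called, 0 without the suffix libraries, 0 without a filter, and 1 to 2 when leaving out 1 library (2 without A2A2 1, with gene 43547 added, and 2 without A2A2 6, with gene 43549 added). Genes 43579, 43547 and 43549 entered the list through A1A1 libraries, so these calls are no independent evidence of a difference. Gene 43545 turned to 0.12 relative to the longer mitochondrial genes without the suffix libraries. The difference in summed counts per 1000000 was -81.7, and -135 when the 10 most abundant genes were left out of the total. Gene 43548 without a filter gave -0.053 without A1A1 2, -0.046 without A1A1 7, -0.0023 without A1A1 8, -0.034 without A1A1 15 and -0.27 without A2A2 11. Pearson's r with COX1 changed sign within 1 genotype for gene 43549 (-0.085 in A1A1), gene 43548 (0.81 in A1A1) and gene 43583 (-0.12 in A2A2). Spearman's rho in the same genotypes was 0.43, 0.30 and 0.054, so by rank only gene 43548 (-0.30 over all cows) changed sign. The cause of these changes was not tested. Members with few counts are limited by depth. The relative fit without a filter, its reference of 15 genes and the fits of gene 43548 without single libraries were chosen after seeing the data.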
